A study of Mus musculus with 23 samples.

Results

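The axonemal dynein and motile cilium genes of mouse were followed in sorted medullary thymic epithelial cells (mTECs) with and without Aire. The set was chosen by gene symbol, with earlier results of these data known, and 86 of the 53402 genes in the count table belong to it. It holds every gene numbered under Dnah, Dnaic, Cfap, Rsph, Tekt or Spag and every Dnaaf gene, together with Dynlrb2, Sec14l3, Tmem212, Ccdc180, Spata18, Ccdc39 and Ccdc40. A symbol is not a function, and a few members, such as Spag5, Spag7 and Spag9, are best known for work outside the cilium.

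A motile cilium is built on an axoneme of microtubule doublets around a central pair. Outer and inner dynein arms, which are large motors made of heavy, intermediate and light chains, slide the doublets, while radial spokes and the central apparatus set the beat and tektins and other proteins lie inside the doublet wall. Preassembly factors fold the arms in the cytoplasm. Multiciliated cells of the airway, ependyma and oviduct switch these genes on under Gmnc, Mcidas, Trp73, Foxj1 and the RFX factors, and sperm use many of the same genes in the flagellum. mTECs include cells that resemble such peripheral cell types, and Aire is the nuclear regulator known for the expression of tissue-restricted genes in mTECs.

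Total RNA was sequenced in 23 libraries of C57BL/6 mice. Cells had been gated as DAPI-CD45-EpCAM+Ly51-, and MHC class II then divided them into a high gate (mTEChi) and a low gate (mTEClo). The 4 groups were Aire KO mTEChi (4 libraries), WT mTEChi (7), Aire KO mTEClo (4) and WT mTEClo (8). The labels describe the KO only as an Aire knockout and name no allele. All KO libraries were labelled male, 2 of 5 weeks and 2 of 6 weeks of age in each gate. The WT mTEChi libraries were 5 male and 2 female, 2 of them of 4 weeks and 5 of 5 weeks. The WT mTEClo libraries were 5 male and 3 female, 5 of them of 4 weeks and 3 of 5 weeks. No KO library was of 4 weeks and no WT library of 6 weeks, so genotype and age can be told apart only in part. Nothing in the labels says whether libraries were made from separate mice, so p-values measure the spread between these libraries, which may be technical.

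Library totals lay between 1602125 and 3938588 counts. The 6 shallowest libraries, 2 each of WT mTEChi, KO mTEClo and WT mTEClo, had at most 1883769 counts and every other library at least 2528049. Those of KO mTEClo were its only libraries of 5 weeks, and those of WT mTEChi its only libraries of 4 weeks. Depth and age therefore cannot be told apart within these groups, and without the 6, KO mTEClo is left with libraries of 6 weeks only. Aire was at 39, 39.3, 21.6 and 17.1 CPM (TMM-scaled counts per 1000000 counts) in KO mTEChi, against 753 (lowest), 821 (median) and 921 (highest) in WT mTEChi. In KO mTEClo it was at 7.58, 3.13, 0 and 0.243 CPM, against 19.6 (lowest), 76.7 (median) and 128 (highest) in WT mTEClo. The counts cover the whole gene, and whether they touch the deleted part was not examined. Of 11 markers of ciliated cells, 6 fell in KO mTEChi and 7 in KO mTEClo by the test that follows. Over all genes tested, 28.0% were called lower in mTEChi and 9.69% in mTEClo. The markers include Ccno and Deup1, Foxj1, which did not pass in mTEChi, and Mcidas, which did not pass in mTEClo. Their summed level was 135 to 157 CPM in KO mTEChi, 200.1 to 338 in WT mTEChi, 77.4 to 94.9 in KO mTEClo and 153 to 202 in WT mTEClo. In such sorted bulk RNA, fewer cells of a type and less RNA per cell cannot be told apart.

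Most of the tested motile cilium genes were lower without Aire in both gates. In mTEChi, 46 members fell and 5 rose in KO against WT libraries, at an adjusted p under 0.05 from edgeR's quasi-likelihood test with Benjamini-Hochberg adjustment over 19310 genes, which stands behind every adjusted p here. Over all genes tested, 28.0% were called lower and 25.7% higher in that comparison. In mTEClo, 42 members fell and 3 rose, where 9.69% of all genes were called lower and 12.0% higher. The median log2 change of the members tested was -1.28 in mTEChi and -1.14 in mTEClo, while that of all genes tested was -0.01 in mTEChi and 0.01 in mTEClo. With age added as a term of the fit, 43 members passed as lower in mTEChi and 29 in mTEClo, while over all genes tested 4738 were lower in mTEChi and 679 in mTEClo, against 5400 and 1871 without that term. Of the 86 members, 71 passed the filter on low counts and were tested. Of those 71, 29 did not reach the limit of the filter, 3.33 CPM in 4 libraries, within the KO libraries, so that they were carried past it at least in part by WT libraries and a fall was the likelier outcome for them. Counted over all 86 members, 43 had every KO library below every WT library in mTEChi and 4 had every one above, against 19.8% and 18.2% of all genes tested. In mTEClo these counts were 39 and 1, against 5.79% and 5.86%.

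Across gates, 36 members fell in both and 2, Spag7 and Dnaaf3, rose in both, while 13 of those tested passed in neither. A further 10 passed as lower in mTEChi alone and 6 in mTEClo alone. Of all genes tested, 28.0% were called lower in mTEChi and 9.69% in mTEClo. The share of all genes that fell in both gates was not computed, so the joint counts have no such measure beside them. The 2 comparisons have no library in common, but same-numbered KO libraries of the 2 gates deviated together from their group means (correlations 0.164, 0.197, 0.139 and 0.222). Those libraries are also of the same age, so a pairing and a shared age cannot be told apart. Summed over all 86 members, the level was 1343 to 1496 CPM in KO mTEChi, against 1974 to 2300.1 in WT mTEChi. The same sum was 909.8 to 1099.8 CPM in KO mTEClo, against 1401 to 2068 in WT mTEClo. The groups of each gate did not overlap in this sum.

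**Figure D1:**
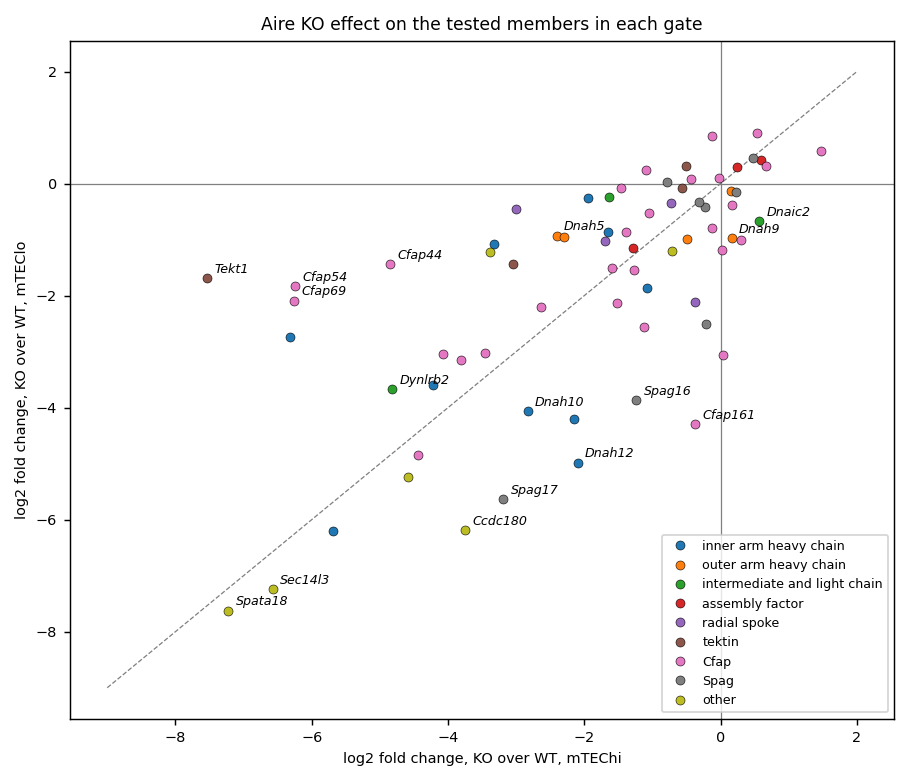
Log2 fold change of KO over WT libraries in mTEChi (horizontal) and mTEClo (vertical) for the 71 members tested, each point 1 gene coloured by role, with the dashed line marking equal changes. Most points lie at the lower left, Tekt1, Cfap44, Cfap54 and Cfap69 stand above the line, and Ccdc180, Spag17, Dnah12 and Cfap161 stand below it; points of genes at 0 in a group show a fitted value that is no measured fold.

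Sequence before the transcription start of members is shown for genes that fell, for 1 that rose and for 2 that did not pass in mTEChi, because RFX and forkhead factors are known to bind near ciliary genes. RefSeq windows of 250 bases before the annotated start (GRCm38.p6) were found for 69 of 86 members and searched on both strands for the X-box form (GTNNCC, then any 3 bases, then GNAAC), its half-site GTTGCC and the forkhead form TGTTTAC, which were picked with these data known. A half-site can lie inside an X-box. The genes shown were picked by hand with these data known, and every fallen gene shown has a match. Of the 39 members with a window that were lower in KO mTEChi, 5 had the X-box and 12 the half-site. The genes shown are therefore not typical of the members that fell. Each window is given 5′ to 3′ on its gene's strand, with matches in capitals.
Tekt1 at chr11:72361883-72362132 on the minus strand: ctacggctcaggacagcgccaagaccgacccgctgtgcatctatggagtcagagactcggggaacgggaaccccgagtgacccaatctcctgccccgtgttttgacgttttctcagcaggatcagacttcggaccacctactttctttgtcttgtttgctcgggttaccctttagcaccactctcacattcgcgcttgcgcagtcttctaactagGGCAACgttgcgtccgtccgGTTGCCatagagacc
Ccdc180 at chr4:45890053-45890302 on the plus strand: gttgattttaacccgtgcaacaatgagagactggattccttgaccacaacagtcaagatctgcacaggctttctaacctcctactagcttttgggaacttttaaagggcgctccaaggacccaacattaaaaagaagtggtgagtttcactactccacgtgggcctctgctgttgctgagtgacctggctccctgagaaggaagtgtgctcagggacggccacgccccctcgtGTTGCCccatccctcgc
Cfap44 at chr16:44394549-44394798 on the plus strand: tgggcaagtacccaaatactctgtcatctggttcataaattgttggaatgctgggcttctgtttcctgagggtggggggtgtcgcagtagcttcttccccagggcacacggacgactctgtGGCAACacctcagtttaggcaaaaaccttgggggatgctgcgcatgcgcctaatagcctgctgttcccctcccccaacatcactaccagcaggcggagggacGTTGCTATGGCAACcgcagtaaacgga
Cfap206 at chr4:34730207-34730456 on the minus strand: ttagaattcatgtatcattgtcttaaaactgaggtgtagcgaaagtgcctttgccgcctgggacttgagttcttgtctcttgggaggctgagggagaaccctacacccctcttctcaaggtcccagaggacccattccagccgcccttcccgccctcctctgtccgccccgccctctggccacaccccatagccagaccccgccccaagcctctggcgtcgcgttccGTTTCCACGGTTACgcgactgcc
Spag16 at chr1:69826720-69826969 on the plus strand: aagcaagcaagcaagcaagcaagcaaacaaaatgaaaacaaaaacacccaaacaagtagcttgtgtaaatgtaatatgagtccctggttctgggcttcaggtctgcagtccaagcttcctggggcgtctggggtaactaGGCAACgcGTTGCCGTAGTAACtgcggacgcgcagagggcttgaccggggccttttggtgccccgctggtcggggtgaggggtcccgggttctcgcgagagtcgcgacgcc
Dnaic2 at chr11:114727169-114727418 on the plus strand: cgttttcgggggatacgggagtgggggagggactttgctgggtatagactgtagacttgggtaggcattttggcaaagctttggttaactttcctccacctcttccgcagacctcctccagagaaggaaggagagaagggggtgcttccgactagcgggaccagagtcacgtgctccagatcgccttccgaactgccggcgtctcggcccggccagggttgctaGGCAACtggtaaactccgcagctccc
Dnah9 at chr11:66168552-66168801 on the minus strand: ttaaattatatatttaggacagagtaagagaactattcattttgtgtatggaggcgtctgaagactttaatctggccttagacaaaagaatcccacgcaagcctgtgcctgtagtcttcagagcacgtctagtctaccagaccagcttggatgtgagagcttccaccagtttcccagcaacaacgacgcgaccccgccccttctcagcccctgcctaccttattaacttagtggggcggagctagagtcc
Dnah17 at chr11:118129220-118129469 on the minus strand: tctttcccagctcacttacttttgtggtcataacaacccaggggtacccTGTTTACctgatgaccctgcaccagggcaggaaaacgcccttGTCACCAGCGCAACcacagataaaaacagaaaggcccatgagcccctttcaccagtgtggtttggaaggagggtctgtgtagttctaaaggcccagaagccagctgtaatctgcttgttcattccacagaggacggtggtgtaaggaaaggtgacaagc
Tekt1, listed at 0 in KO mTEChi, has a half-site ending 29 bases and another ending 9 bases before this start, while the window of a second annotated start (chr11:72361297-72361546) has no match, and Ccdc180 has 1 ending 11 bases before. Cfap44 and Cfap206 have an X-box match ending 13 and 9 bases before the start, and Spag16 has 1 ending 89 bases before. Dnaic2, which rose in mTEChi, has a half-site ending 20 bases before its start, and Dnah9, which did not pass in mTEChi, has no match in its window, of which 32 bases are exon of the non-coding gene Gm12296. Dnah17, which passed in neither gate, has an X-box match ending 145 bases and a forkhead match ending 194 bases before its start.

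The X-box form was found for 10 of the 69 members, or 14.5%, and for 2.07% of all 27025 genes with a window. The half-site was found for 21 members, or 30.4%, against 11.8% of all genes, and the forkhead form for 4, or 5.80%, against 3.54%. Of the 39 with a window that were lower in KO mTEChi, 5 had the X-box, 12 the half-site and 0 the forkhead form, and of the other 30 members, 5, 9 and 4 had them. A match is a string of letters and not a bound site.

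The inner arm heavy chains, the motors nearest the spokes, fell together. All 10 passed as lower in KO mTEChi and 9 of 10 in KO mTEClo, where 28.0% and 9.69% of all genes tested were called lower. Dnah3, Dnah7a and Dnah7c were below the filter's limit of 3.33 CPM in every KO library. They passed the filter through WT libraries, so a fall was the likelier outcome for them. The summed level of the 10 was 98.6 to 123 CPM in KO mTEChi, against 375 to 496 in WT mTEChi. In mTEClo the sum was 31.8 to 41.1 CPM in KO libraries, against 168 to 338 in WT libraries.

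Dnah10 (ENSMUSG00000038011, chr5:124725085-124834308, plus strand, GRCm38), an inner arm heavy chain, was at 12.7, 9.0, 10.3 and 7.94 CPM in KO mTEChi, against 47.1 (lowest), 70.01 (median) and 94.3 (highest) in WT mTEChi (log2 change -2.83 ± 0.28, adjusted p = 1.00e-08; errors of log2 changes are SE). KO mTEClo libraries had it at 3.25, 5.01, 3.28 and 2.19 CPM, against 36.9 (lowest), 50.9 (median) and 84.8 (highest) in WT mTEClo (log2 change -4.07 ± 0.35, adjusted p = 1.03e-08). All 8 KO libraries lay far below every WT library of either gate.

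Dnah3 (ENSMUSG00000052273, chr7:119922671-120095280, minus strand), an inner arm chain of which 10.5% of the exon length overlaps Lyrm1, had 0, 0, 0.685 and 0.418 CPM in KO mTEChi, against 7.8 (lowest), 18.6 (median) and 28.6 (highest) in WT mTEChi. That is 3 counts in the 4 KO libraries and 353 in the 7 WT libraries, or 63.4-fold lower with an exact 95% counting interval of 21.5 to 309. Its level in KO mTEClo was 0, 0, 0.596 and 0.486 CPM, against 18.6 (lowest), 27.1 (median) and 48.9 (highest) in WT mTEClo (log2 change -6.21 ± 0.59, adjusted p = 4.62e-08). The 2 KO libraries of 5 weeks in each gate had no count of it, and those of mTEClo were also among the 6 shallowest libraries.

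Dnah6 was at 13.2, 8.59, 15.7 and 9.19 CPM in KO mTEChi, against 33.2 (lowest), 51.8 (median) and 69.4 (highest) in WT mTEChi (log2 change -2.15 ± 0.25, adjusted p = 1.09e-07). The gene's KO mTEClo libraries were at 3.25, 2.5, 2.08 and 2.43 CPM, against 32.6 (lowest), 44.8 (median) and 71.8 (highest) in WT mTEClo (log2 change -4.20 ± 0.33, adjusted p = 1.50e-09). Dnah12 had 3.95, 4.91, 7.53 and 8.35 CPM in KO mTEChi, against 15.5 (lowest), 28.2 (median) and 36.6 (highest) in WT mTEChi (log2 change -2.10 ± 0.35, adjusted p = 1.89e-05). The mTEClo values of Dnah12 were 0.541, 1.88, 1.19 and 0.243 CPM in KO, against 16.8 (lowest), 26.8 (median) and 45.6 (highest) in WT mTEClo (log2 change -4.99 ± 0.50, adjusted p = 1.05e-07). Neither chain overlapped between genotypes in either gate, and both fell further in mTEClo, with differences between the gates' KO effects (mTEChi minus mTEClo, log2) of 2.05 ± 0.45 (adjusted p = 0.00134) and 2.89 ± 0.70 (adjusted p = 0.00336).

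Dnah2 had 34.2, 39.3, 34.9 and 30.5 CPM in KO mTEChi, against 88.8 (lowest), 116 (median) and 129 (highest) in WT mTEChi (log2 change -1.66 ± 0.14, adjusted p = 9.50e-11), the smallest p of the members in that gate. For KO mTEClo the values were 10.8, 9.39, 16.7 and 11.2 CPM, against 17.8 (lowest), 22.7 (median) and 30.8 (highest) in WT mTEClo (log2 change -0.87 ± 0.17, adjusted p = 0.000417). Dnah1 was at 44.3, 40.1, 27 and 33 CPM in KO mTEChi, against 55.5 (lowest), 71.9 (median) and 109 (highest) in WT mTEChi (log2 change -1.08 ± 0.17, adjusted p = 4.51e-06). Dnah1 had 4.87, 4.38, 6.85 and 4.61 CPM in KO mTEClo, against 15.8 (lowest), 18.9 (median) and 23.4 (highest) in WT mTEClo (log2 change -1.87 ± 0.24, adjusted p = 2.55e-06). Neither gene overlapped between genotypes in either gate, and the KO libraries of mTEChi, low against their WT, still lay above every WT library of mTEClo for Dnah1.

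Dnah14 stood apart from the other inner arm genes. It had 12.7, 13.1, 13 and 5.43 CPM in KO mTEChi, against 39 (lowest), 42.8 (median) and 50.3 (highest) in WT mTEChi (log2 change -1.94 ± 0.23, adjusted p = 5.50e-08), with no overlap and with replicate 4 of KO mTEChi well below the other 3. In mTEClo it was low in both genotypes, at 3.25, 4.38, 3.57 and 3.4 CPM in KO, against 1.31 (lowest), 4.51 (median) and 8.62 (highest) in WT, and the groups overlapped (log2 change -0.26 ± 0.33, adjusted p = 0.623). The KO effects of the gates differed by -1.68 ± 0.41 (adjusted p = 0.00281).

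Dnah7a, Dnah7b and Dnah7c are close copies, and the authors' counting could split or drop reads that fit more than one of them. Dnah7b, the most abundant of the 3, was at 1.32, 2.86, 2.4 and 3.34 CPM in KO mTEChi, against 18.7 (lowest), 21.4 (median) and 40.3 (highest) in WT mTEChi (log2 change -3.32 ± 0.28, adjusted p = 1.24e-10). In mTEClo, Dnah7b was at 5.41, 6.89, 6.25 and 6.31 CPM in KO, against 10.5 (lowest), 13.2 (median) and 16.3 (highest) in WT mTEClo (log2 change -1.08 ± 0.24, adjusted p = 0.00202). With age as a further term, neither Dnah7b (-0.99, adjusted p = 0.0769) nor Dnah7a (-2.43, adjusted p = 0.0722) passed in mTEClo. Dnah7a was listed at 0 in all 4 KO mTEChi libraries, against 1.2 (lowest), 4.28 (median) and 8.46 (highest) CPM in WT mTEChi, which is at least 14.9-fold lower when the KO group is given a floor of 3 counts over its 4 libraries. Dnah7c was at 0 to 0.818 CPM in KO mTEChi, against 3.87 to 13.6 in WT mTEChi, and passed as lower in both gates.

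**Figure D2:**
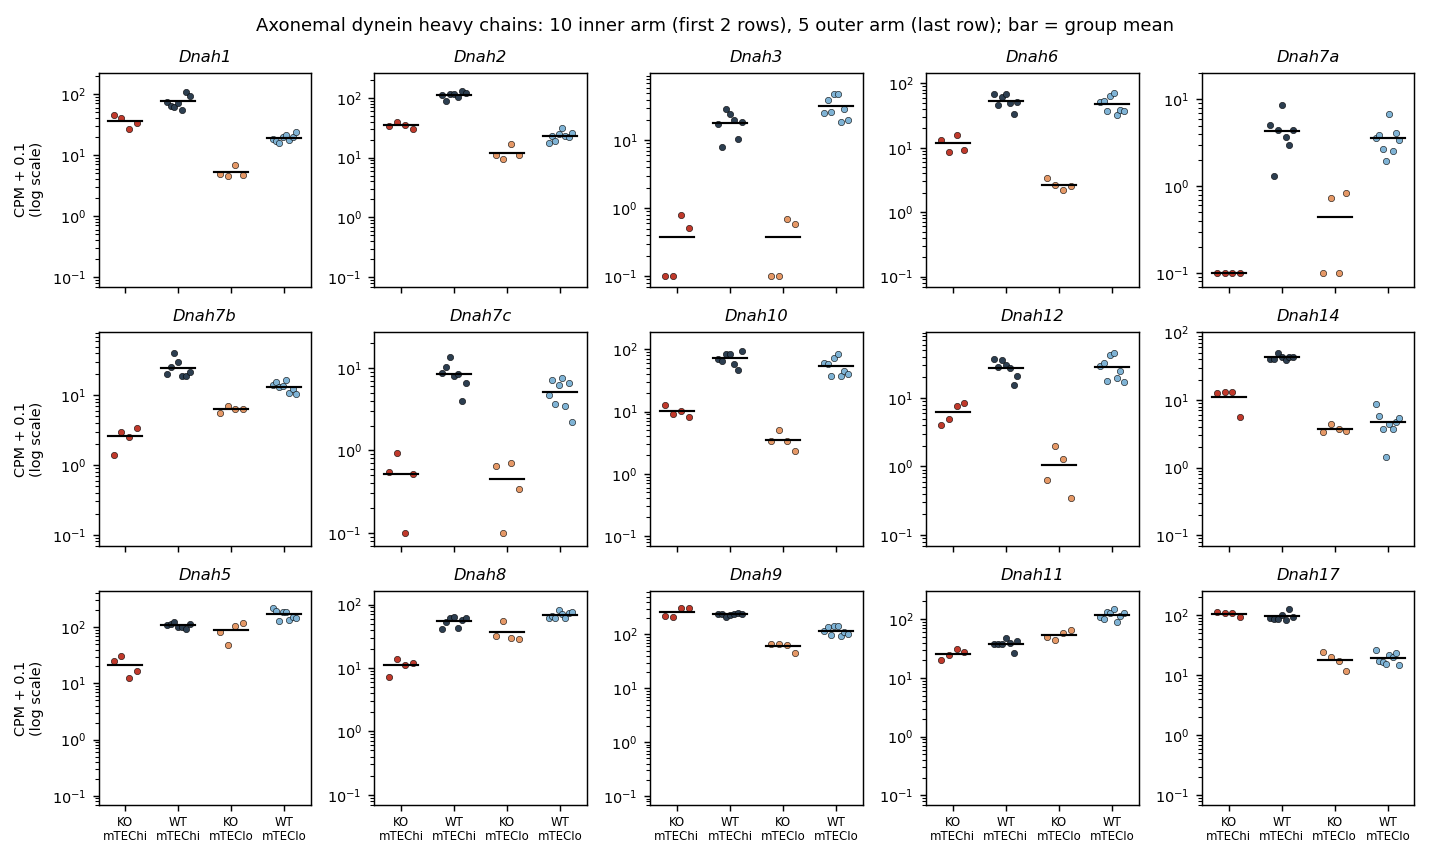
Level in CPM (plus 0.1, log scale) of the 15 axonemal dynein heavy chains in each library, by group, each point 1 library and each bar the group mean; the first 10 panels are inner arm genes and the last 5 outer arm genes. KO points lie below WT points of the same gate for most inner arm genes, while Dnah9 and Dnah17 have KO and WT points together in mTEChi.

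The outer arm heavy chains split. Dnah5, Dnah8 and Dnah11 passed as lower in KO mTEChi, 3 of 5, and Dnah5, Dnah8, Dnah9 and Dnah11 in KO mTEClo, 4 of 5, while Dnah17 passed in neither. The shares of all genes tested called lower were 28.0% in mTEChi and 9.69% in mTEClo. Dnah5 (ENSMUSG00000022262, chr15:28203752-28472052, plus strand), the outer arm chain most often altered in human primary ciliary dyskinesia, was at 25, 30.3, 12.3 and 16.3 CPM in KO mTEChi, against 92.3 (lowest), 108 (median) and 125 (highest) in WT mTEChi (log2 change -2.40 ± 0.23, adjusted p = 9.40e-09). In KO mTEClo it was at 82.8, 48.8, 103 and 117 CPM, against 130.03 (lowest), 168 (median) and 218 (highest) in WT mTEClo (log2 change -0.93 ± 0.19, adjusted p = 0.00135). No KO library reached its WT range, and the fall was deeper in mTEChi (difference -1.47 ± 0.29, adjusted p = 0.000527). The mTEClo change did not pass without the 6 shallowest libraries (-0.49, adjusted p = 0.0726) or with age as a further term (-0.78, adjusted p = 0.104). Leaving out those 6 also removes every KO mTEClo library of 5 weeks.

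Dnah8, an outer arm chain known chiefly from sperm, had 7.02, 13.9, 11 and 11.7 CPM in KO mTEChi, against 40.9 (lowest), 56.8 (median) and 63.1 (highest) in WT mTEChi (log2 change -2.30 ± 0.20, adjusted p = 1.91e-10). KO mTEClo libraries had it at 31.9, 55.1, 29.5 and 28.9 CPM, against 60.9 (lowest), 67.6 (median) and 81 (highest) in WT mTEClo (log2 change -0.95 ± 0.17, adjusted p = 0.000127), where 1 KO library of 5 weeks came near the WT range. Dnah11 was at 20.2, 24.6, 30.5 and 28 CPM in KO mTEChi, against 26.1 (lowest), 38.4 (median) and 48 (highest) in WT mTEChi (log2 change -0.49 ± 0.16, adjusted p = 0.0109), and the groups overlapped. Without replicate 1 of KO mTEChi that change was -0.39 (adjusted p = 0.0578). In KO mTEClo, where it was higher than in mTEChi in both genotypes, Dnah11 was at 50.3, 44.5, 58.1 and 65.8 CPM, against 87.9 (lowest), 119 (median) and 149 (highest) in WT mTEClo (log2 change -0.998 ± 0.14, adjusted p = 6.53e-06), with no overlap.

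Dnah9 (ENSMUSG00000056752, chr11:65831282-66168551, minus strand), the outer arm chain of the distal cilium, fell in mTEClo and did not pass in mTEChi. It had 216, 210.3, 306 and 315 CPM in KO mTEChi, against 209 (lowest), 237 (median) and 251 (highest) in WT mTEChi, with 2 KO libraries above the WT range and 2 within it (log2 change 0.16 ± 0.13, adjusted p = 0.307). Its level in KO mTEClo was 65.5, 67, 64 and 44.9 CPM, against 92.4 (lowest), 113 (median) and 143 (highest) in WT mTEClo (log2 change -0.97 ± 0.15, adjusted p = 2.44e-05), with every KO library below every WT library. The difference of the KO effects was 1.13 ± 0.19 (adjusted p = 5.46e-05). Dnah17 (ENSMUSG00000033987), a sperm-type outer arm chain, was at 112, 110.5, 108 and 93.1 CPM in KO mTEChi, against 84.3 (lowest), 88.6 (median) and 125 (highest) in WT mTEChi (log2 change 0.15 ± 0.14, adjusted p = 0.371). The mTEClo values of Dnah17 were 23.8, 20.04, 17 and 11.7 CPM in KO, against 14.7 (lowest), 18.7 (median) and 25.8 (highest) in WT mTEClo (log2 change -0.14 ± 0.19, adjusted p = 0.629).

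Per kilobase of exon, which allows levels of different heavy chains to be compared, Dnah9 was the highest of the 15 in mTEChi, at 16.4 CPM per kilobase in KO and 14.7 in WT. The next in KO mTEChi were Dnah17 at 6.57 and Dnah1 at 2.77, whereas in WT mTEChi they were Dnah2 at 7.48 and Dnah5 at 6.90. In mTEClo Dnah5 was the highest, at 5.63 CPM per kilobase in KO and 10.8 in WT, followed in KO by Dnah9 and Dnah11 at 3.78 each. In WT mTEClo Dnah11 at 8.16 and Dnah9 at 7.33 came next, so that outer arm genes led the order in mTEClo of both genotypes.

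Of the 3 intermediate and light chain genes, Dynlrb2 fell in both gates, Dnaic1 fell in mTEChi and Dnaic2 rose in mTEChi. Dynlrb2 (ENSMUSG00000034467, chr8:116504974-116515915, plus strand), a roadblock light chain, was at 0, 0, 0.342 and 0.418 CPM in KO mTEChi, against 3.72 (lowest), 7.55 (median) and 10.0 (highest) in WT mTEChi. With 2 counts in KO and 137 in WT this is 36.9-fold lower with an exact 95% counting interval of 10.03 to 308. The gene's KO mTEClo libraries were at 0, 0, 0.596 and 0.486 CPM, against 3.57 (lowest), 5.06 (median) and 7.87 (highest) in WT mTEClo (log2 change -3.67 ± 0.51, adjusted p = 5.21e-06). Of the 8 KO libraries, 4 had no count of it.

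Dnaic1, an intermediate chain of the outer arm, had 3.95, 2.86, 2.74 and 7.1 CPM in KO mTEChi, against 8.1 (lowest), 13 (median) and 16.1 (highest) in WT mTEChi (log2 change -1.63 ± 0.29, adjusted p = 2.93e-05). In mTEClo it had 5.41, 3.13, 2.98 and 5.83 CPM in KO, against 3.36 (lowest), 4.97 (median) and 6.87 (highest) in WT, and the change did not pass (log2 change -0.25 ± 0.31, adjusted p = 0.607). Dnaic2 (ENSMUSG00000034706, chr11:114727408-114757889, plus strand), its partner in the outer arm, was at 149.6, 149.8, 136 and 132 CPM in KO mTEChi, against 82.4 (lowest), 97.5 (median) and 108 (highest) in WT mTEChi (log2 change 0.57 ± 0.16, adjusted p = 0.00424), with every KO library above every WT library. In mTEClo it was at 13, 9.39, 4.77 and 4.37 CPM in KO, against 5.1 (lowest), 11.4 (median) and 16.7 (highest) in WT (log2 change -0.67 ± 0.27, adjusted p = 0.0785), and the groups overlapped. The difference of its KO effects was 1.24 ± 0.30 (adjusted p = 0.00344), and the 2 intermediate chains changed in opposite directions in mTEChi.

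Of the 4 assembly factors, 3 were tested, and Dnaaf1 and Dnaaf3 passed in opposite directions in mTEChi. Dnaaf1, with 20.7% of its exon length overlapping Taf1c, was at 1.76, 1.23, 2.05 and 1.25 CPM in KO mTEChi, against 1.8 (lowest), 4.53 (median) and 6.0 (highest) in WT mTEChi (log2 change -1.28 ± 0.43, adjusted p = 0.0139). Dnaaf3 was at 48.7, 45.4, 29.8 and 34.7 CPM in KO mTEChi, against 20.4 (lowest), 26.8 (median) and 31.8 (highest) in WT mTEChi, where the lowest KO library lay below the highest WT library (log2 change 0.59 ± 0.16, adjusted p = 0.00234). In mTEClo Dnaaf3 was at 55.8, 47, 38.4 and 34.7 CPM in KO, against 27.2 (lowest), 33.2 (median) and 42 (highest) in WT (log2 change 0.43 ± 0.16, adjusted p = 0.0497), with overlap of the groups, and this call was lost when any of 15 single libraries was left out, with adjusted p-values up to 0.22, and with the replicate number as a block (adjusted p = 0.0623). Without the 6 shallowest libraries it was 0.24 (adjusted p = 0.374). Dnaaf5 passed in neither gate, and Dnaaf2, of which 75.6% of the exon length overlaps other genes, was too low to be tested.

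Among radial spoke genes, 4 of 8 were tested, and 3 of those fell in KO mTEChi and 2 in KO mTEClo. The shares of all genes tested called lower were 28.0% in mTEChi and 9.69% in mTEClo. Rsph1, a spoke head protein, was at 0, 2.05, 2.05 and 0.835 CPM in KO mTEChi, against 7.42 (lowest), 10.8 (median) and 16.3 (highest) in WT mTEChi (log2 change -3.002 ± 0.51, adjusted p = 1.61e-05). Rsph1 had 3.25, 1.88, 6.85 and 8.01 CPM in KO mTEClo, against 4.03 (lowest), 6.88 (median) and 15 (highest) in WT mTEClo (log2 change -0.45 ± 0.38, adjusted p = 0.422). Its spoke head partner Rsph4a showed the other order, at 4.39, 2.86, 8.9 and 2.92 CPM in KO mTEChi, against 3.6 (lowest), 6.2 (median) and 8.76 (highest) in WT mTEChi (log2 change -0.38 ± 0.33, adjusted p = 0.344). In mTEClo, Rsph4a was at 0.541, 3.13, 2.08 and 2.67 CPM in KO, against 7.14 (lowest), 9.53 (median) and 14.3 (highest) in WT mTEClo (log2 change -2.11 ± 0.36, adjusted p = 0.000101). Rsph9, also of the spoke head, fell in mTEChi (log2 change -0.73 ± 0.25, adjusted p = 0.0167). Rsph10b fell in both gates (-1.70 ± 0.33 in mTEChi, adjusted p = 8.16e-05, and -1.02 ± 0.31 in mTEClo, adjusted p = 0.018), and its mTEClo change was -0.66 (adjusted p = 0.195) without the 6 shallowest libraries and -0.99 (adjusted p = 0.1795) with age as a further term.

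Of the tektins, filament proteins of the doublet wall, Tekt1 (ENSMUSG00000020799, chr11:72344722-72362442, minus strand) was listed at 0 in all 4 KO mTEChi libraries, against 6.0 (lowest), 8.05 (median) and 11.7 (highest) CPM in WT mTEChi. That is at least 30.4-fold lower against the floor of 3 counts over the group. For KO mTEClo the values were 1.08, 1.88, 1.19 and 2.67 CPM, against 4.33 (lowest), 6.33 (median) and 9.93 (highest) in WT mTEClo (log2 change -1.68 ± 0.34, adjusted p = 0.000816), so counts remained in every KO library of that gate. The difference of its KO effects passed (adjusted p = 8.61e-05). Tekt4 was at 0, 0.409, 1.03 and 0.418 CPM in KO mTEChi, against 3.0 (lowest), 5.36 (median) and 7.2 (highest) in WT mTEChi (log2 change -3.05 ± 0.55, adjusted p = 3.47e-05), and did not pass in mTEClo (log2 change -1.43 ± 0.55, adjusted p = 0.0594). Tekt2 and Tekt5 passed in neither gate, and Tekt3 was too low to be tested, with no count in any KO library.

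**Figure D3:**
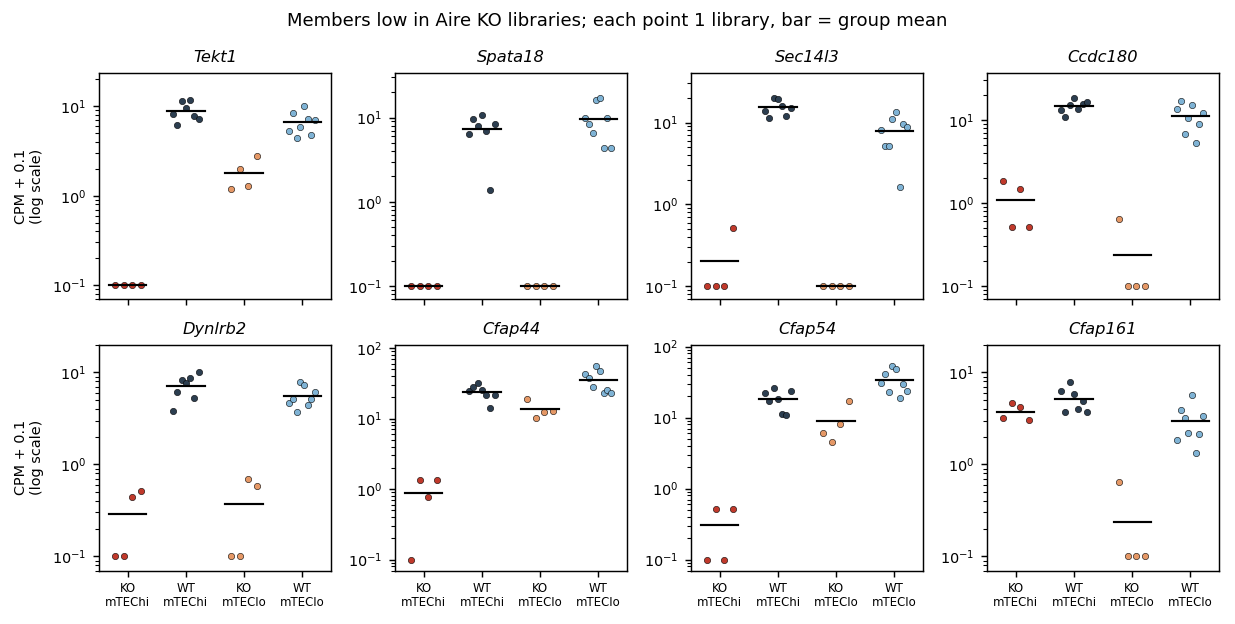
Level in CPM (plus 0.1, log scale) of 8 members with large differences, in each library by group, each point 1 library and each bar the group mean. Tekt1, Cfap44 and Cfap54 are lowest in KO mTEChi, Ccdc180 and Cfap161 are lowest in KO mTEClo, and Spata18 is at 0 in all 8 KO libraries.

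The Cfap genes, a naming family of cilia and flagella proteins with varied structures, had 31 members, of which 28 were tested. In mTEChi 16 fell and 2, Cfap20 and Cfap58, rose, and in mTEClo 15 fell and 1, Cfap298, rose. Over all genes tested, 28.0% were called lower and 25.7% higher in mTEChi, and 9.69% and 12.0% in mTEClo. Cfap65, known from the sperm flagellum, was at 2.19, 2.86, 3.77 and 3.34 CPM in KO mTEChi, against 42 (lowest), 71.9 (median) and 99.1 (highest) in WT mTEChi (log2 change -4.44 ± 0.37, adjusted p = 8.92e-10). The mTEClo values of Cfap65 were 1.08, 0.626, 2.38 and 0.243 CPM in KO, against 17.6 (lowest), 35.7 (median) and 54.2 (highest) in WT mTEClo (log2 change -4.85 ± 0.47, adjusted p = 9.32e-08). Cfap52, a protein of the doublet lumen, was at 0 to 0.835 CPM in KO mTEChi, against 4.8 to 11.8 in WT mTEChi, and at 0 to 0.971 CPM in KO mTEClo, against 3.82 to 9.42 in WT mTEClo. Cfap57 and Cfap206 moved likewise in both gates, with log2 changes of -3.46 ± 0.43 and -4.07 ± 0.54 in mTEChi and -3.02 ± 0.41 and -3.03 ± 0.56 in mTEClo. For these 4 genes KO and WT libraries did not overlap in either gate.

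A second kind of Cfap gene fell further in mTEChi. Cfap44 (ENSMUSG00000071550, chr16:44394796-44482428, plus strand), part of the complex that tethers an inner arm to the doublet, was at 0, 1.23, 0.685 and 1.25 CPM in KO mTEChi, against 14.2 (lowest), 24.2 (median) and 32.1 (highest) in WT mTEChi (log2 change -4.85 ± 0.47, adjusted p = 4.19e-09). In KO mTEClo it was still at 18.9, 10.02, 12.2 and 12.6 CPM, against 23.1 (lowest), 32.2 (median) and 55.6 (highest) in WT mTEClo (log2 change -1.44 ± 0.27, adjusted p = 0.000391). With age as a further term that change was -0.72 and did not pass (adjusted p = 0.221). Cfap54, a central apparatus protein, had 0, 0.409, 0 and 0.418 CPM in KO mTEChi, against 10.6 (lowest), 18.1 (median) and 25.7 (highest) in WT mTEChi, which with 2 and 331 counts is 89.2-fold lower with an exact 95% counting interval of 24.5 to 739.6. KO mTEClo libraries had it at 5.95, 4.38, 8.04 and 16.8 CPM, against 18.9 (lowest), 30.5 (median) and 53 (highest) in WT mTEClo (log2 change -1.83 ± 0.35, adjusted p = 0.000607). This call too was lost with the age term (-1.45, adjusted p = 0.103).

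Cfap69 had 0, 0.409, 0 and 0 CPM in KO mTEChi, against 7.1 (lowest), 11.1 (median) and 16.3 (highest) in WT mTEChi, or 117-fold lower with an exact 95% counting interval of 20.9 to 4662. Its level in KO mTEClo was 1.08, 1.25, 1.49 and 3.64 CPM, against 6.71 (lowest), 9.43 (median) and 14.9 (highest) in WT mTEClo (log2 change -2.09 ± 0.35, adjusted p = 6.72e-05). Cfap45, of the doublet lumen, fell in mTEChi (log2 change -1.46 ± 0.26, adjusted p = 2.33e-05) and was at 19.5 to 30.6 CPM in KO mTEClo, against 22.3 to 29.1 in WT mTEClo (log2 change -0.08 ± 0.19, adjusted p = 0.803). The KO effects of the gates differed by -3.41 for Cfap44 (adjusted p = 0.000124) and -1.38 for Cfap45 (adjusted p = 0.00143) on the log2 scale. The difference also passed for Cfap54 (adjusted p = 0.00216) and Cfap69 (adjusted p = 0.000779), which have too few counts in KO mTEChi for its size to be measured.

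Genes of the third kind fell further in mTEClo, and of these Cfap161 and Cfap157 did not pass in mTEChi. Cfap161 was at 3.07, 4.5, 4.11 and 2.92 CPM in KO mTEChi, against 3.57 (lowest), 4.84 (median) and 7.85 (highest) in WT mTEChi (log2 change -0.38 ± 0.36, adjusted p = 0.385). In KO mTEClo it had 1 count in all, with 0.541, 0, 0 and 0 CPM, against 1.22 (lowest), 2.58 (median) and 5.6 (highest) in WT mTEClo, or 32-fold lower with an exact 95% counting interval of 5.56 to 1281. Cfap157 was at 6.16 to 8.59 CPM in KO mTEChi, against 4.8 to 9.28 in WT mTEChi, and at 1.21 to 3.76 CPM in KO mTEClo, against 3.9 to 6.36 in WT mTEClo (log2 change -1.18 ± 0.31, adjusted p = 0.00589). That mTEClo change was -0.88 (adjusted p = 0.054) without replicate 4 of KO mTEClo and -1.08 (adjusted p = 0.0996) with age as a further term. Cfap61, known from the spoke and central pair region, fell in both gates and further in mTEClo (-1.12 ± 0.29 in mTEChi, adjusted p = 0.00207, and -2.56 ± 0.37 in mTEClo, adjusted p = 1.11e-05). Its difference between the gates did not pass with age as a further term (1.28, adjusted p = 0.0597) or without the 6 shallowest libraries (1.08, adjusted p = 0.176).

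The Cfap genes that rose were 2 in mTEChi and 1 in mTEClo. Cfap58 (ENSMUSG00000046585, chr19:47937675-48035387, plus strand), known from the sperm flagellum, had 14.9, 20.5, 17.1 and 21.3 CPM in KO mTEChi, against 3.93 (lowest), 7.5 (median) and 11.2 (highest) in WT mTEChi (log2 change 1.48 ± 0.29, adjusted p = 8.92e-05), with no overlap. In mTEClo it was near 0 in both genotypes, at 0 to 1.21 CPM in KO and 0 to 1.34 in WT. Cfap20, a doublet junction protein that many cells express, had 52.7, 43.8, 52.7 and 63.5 CPM in KO mTEChi, against 27.9 (lowest), 35 (median) and 40.8 (highest) in WT mTEChi (log2 change 0.67 ± 0.13, adjusted p = 7.06e-05). Cfap298, a factor linked to arm assembly, had 5.41, 9.39, 9.53 and 16 CPM in KO mTEClo, against 3.18 (lowest), 5.44 (median) and 7.6 (highest) in WT mTEClo (log2 change 0.91 ± 0.27, adjusted p = 0.0152). The groups overlapped for Cfap298, and without replicate 4 of KO mTEClo its change was 0.53 (adjusted p = 0.196). With the replicate number as a block it was 0.79 (adjusted p = 0.0639), and with age as a further term 0.72 (adjusted p = 0.296).

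Cfap299 had 3.07, 3.68, 4.11 and 2.92 CPM in KO mTEChi, against 2.1 (lowest), 3.1 (median) and 5.36 (highest) in WT mTEChi (log2 change 0.04 ± 0.37, adjusted p = 0.946). In mTEClo it had 1 count in all KO libraries, at 0, 0.626, 0 and 0 CPM, against 0 (lowest), 1.21 (median) and 1.57 (highest) in WT, or 12-fold lower with an exact 95% counting interval of 1.98 to 491, and that call was lost with age as a further term (adjusted p = 0.104). Cfap53, a doublet lumen protein, fell in mTEClo (log2 change -1.54 ± 0.51, adjusted p = 0.0277), a call lost without replicate 4 of WT mTEClo (-1.47, adjusted p = 0.0543) or replicate 3 or 4 of KO mTEClo (-1.53 and -1.40, adjusted p = 0.0756 and 0.0912), without the 6 shallowest libraries (-1.59, adjusted p = 0.0876) or with the age term (-1.14, adjusted p = 0.302). Cfap46, of the central apparatus, changed by -1.59 ± 0.23 in mTEChi (adjusted p = 2.09e-06) and by -1.50 ± 0.28 in mTEClo (adjusted p = 0.000321). Cfap300 had log2 changes of -1.09 ± 0.32 in mTEChi (adjusted p = 0.00512) and 0.24 ± 0.27 in mTEClo (adjusted p = 0.571). Cfap97, the most abundant Cfap gene, had -0.03 ± 0.16 in mTEChi (adjusted p = 0.9) and 0.09 ± 0.16 in mTEClo (adjusted p = 0.71).

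Cfap43, the partner of Cfap44 in the tether complex, did not pass in either gate, but its KO mTEClo libraries fell into 2 pairs. It had 1.62, 3.76, 50.04 and 29.1 CPM there, the lower pair being of 5 weeks and the higher of 6 weeks, against 5.19 (lowest), 12.7 (median) and 21.6 (highest) in WT mTEClo. The lower pair was also the shallower, at 1883769 and 1639231 counts, against 3272356 and 3938588, so age and depth cannot be told apart here. In mTEChi Cfap43 had 10.5, 7.77, 4.79 and 6.27 CPM in KO, against 3.55 (lowest), 8.57 (median) and 11.2 (highest) in WT.

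The Spag genes, named as sperm antigens, are of mixed kind. Of 12, 8 were tested. The central apparatus proteins Spag16 and Spag17 fell in both gates. Spag17 (ENSMUSG00000027867, chr3:99885406-100143322, plus strand), with 15.7% of its exon length overlapping Wdr3 and Spag17os, was at 0.439, 0.818, 1.71 and 1.25 CPM in KO mTEChi, against 5.4 (lowest), 11.4 (median) and 13.9 (highest) in WT mTEChi (log2 change -3.19 ± 0.45, adjusted p = 9.93e-07). The gene's KO mTEClo libraries were at 0.541, 0, 0 and 0 CPM, against 2.75 (lowest), 6.52 (median) and 12 (highest) in WT mTEClo, which with 1 and 171 counts is 76-fold lower with an exact 95% counting interval of 13.5 to 3019. Spag16 was at 4.83, 5.73, 4.11 and 3.34 CPM in KO mTEChi, against 6.43 (lowest), 11.2 (median) and 14.6 (highest) in WT mTEChi (log2 change -1.24 ± 0.28, adjusted p = 0.000517). Spag16 had 0, 0, 0.596 and 0.728 CPM in KO mTEClo, against 5.37 (lowest), 6.66 (median) and 9.19 (highest) in WT mTEClo (log2 change -3.87 ± 0.45, adjusted p = 3.51e-07).

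Spag6l, the central pair gene most often studied under the name Spag6 and a close copy of it, was at 16.2, 19.6, 16.4 and 15.5 CPM in KO mTEChi, against 15.9 (lowest), 18.6 (median) and 24.6 (highest) in WT mTEChi, with overlap (log2 change -0.21 ± 0.22, adjusted p = 0.432). For KO mTEClo the values were 2.17, 0.626, 2.08 and 1.7 CPM, against 5.1 (lowest), 8.88 (median) and 16.3 (highest) in WT mTEClo, with none (log2 change -2.51 ± 0.34, adjusted p = 4.37e-06). The KO effects differed by 2.30 ± 0.40 (adjusted p = 9.64e-05), as did those of Spag16, by 2.63 ± 0.57 (adjusted p = 0.000989).

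The Spag genes best known outside the cilium gave small changes. Spag9, a scaffold of the JNK pathway and of motor transport, had 136, 158, 178 and 175 CPM in KO mTEChi, against 181 (lowest), 189.99 (median) and 233 (highest) in WT mTEChi (log2 change -0.32 ± 0.09, adjusted p = 0.00379), and fell by 0.34 in mTEClo (adjusted p = 0.00773). The mTEClo change was lost without the 6 shallowest libraries (-0.28, adjusted p = 0.0587) and with age as a further term (-0.26, adjusted p = 0.21). Spag7 rose in both gates, at 64.1, 63, 65.7 and 73.5 CPM in KO mTEChi, against 42 (lowest), 47.1 (median) and 52.3 (highest) in WT mTEChi (log2 change 0.47 ± 0.10, adjusted p = 0.000129), and 43.2 to 54.7 CPM in KO mTEClo, against 31.9 to 38.5 in WT mTEClo (log2 change 0.45 ± 0.10, adjusted p = 0.00145). Spag5, a protein of the mitotic spindle, passed in neither gate. Spag1, which is not one of the Spag genes best known outside the cilium, also passed in neither. Spag11b, a close copy of Spag11a and too low to be tested, was listed at 0 in all KO mTEChi libraries, against 0.323 to 2.14 CPM in WT mTEChi, and had 4.87, 2.5, 3.28 and 2.19 CPM in KO mTEClo, against 0.636 (lowest), 1.91 (median) and 2.62 (highest) in WT mTEClo.

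The 7 members added by name, Dynlrb2 among them, all fell in both gates. They were chosen with earlier results of these data known, so their common fall is no independent support. Of all genes tested, 28.0% were called lower in mTEChi and 9.69% in mTEClo. Spata18 (ENSMUSG00000029155, chr5:73651379-73679512, plus strand), a mitochondrial quality control gene that ciliated cells also express, was listed at 0 in all 8 KO libraries. WT libraries had 1.29 (lowest), 7.85 (median) and 10.6 (highest) CPM in mTEChi and 4.2 (lowest), 9.0 (median) and 16.8 (highest) in mTEClo, so the KO level was at least 23.9-fold lower in mTEChi and at least 35.6-fold lower in mTEClo. Sec14l3 (ENSMUSG00000054986, chr11:4064841-4077736, plus strand), a lipid transfer protein of airway ciliated cells, had 0, 0, 0 and 0.418 CPM in KO mTEChi, against 11.4 (lowest), 15 (median) and 19.99 (highest) in WT mTEChi. With 1 and 291 counts this is 157-fold lower with an exact 95% counting interval of 27.9 to 6216. In KO mTEClo it was listed at 0 in all 4 libraries, against 1.53 (lowest), 8.37 (median) and 13.5 (highest) CPM in WT mTEClo, at least 29.5-fold lower.

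Ccdc180 (ENSMUSG00000035539, chr4:45890303-45950774, plus strand) was at 1.76, 0.409, 1.37 and 0.418 CPM in KO mTEChi, against 10.8 (lowest), 15 (median) and 18.1 (highest) in WT mTEChi (log2 change -3.75 ± 0.41, adjusted p = 1.28e-08). Ccdc180 had 1 count in all of KO mTEClo, with 0.541, 0, 0 and 0 CPM, against 5.19 (lowest), 11.2 (median) and 16.5 (highest) in WT mTEClo, or 114-fold lower with an exact 95% counting interval of 20.2 to 4512. Tmem212, a membrane protein of ciliated epithelia, was listed at 0 in KO mTEChi, against 0.30 (lowest), 0.714 (median) and 2.42 (highest) CPM in WT mTEChi, and had 0, 0.626, 0 and 0 CPM in KO mTEClo, against 2.1 (lowest), 5.04 (median) and 8.39 (highest) in WT mTEClo.

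Ccdc39 and Ccdc40 form the ruler that spaces arms and spokes along the doublet. Ccdc39, with 16.9% of its exon length overlapping Ttc14, was at 1.32, 0.818, 1.37 and 2.51 CPM in KO mTEChi, against 10.6 (lowest), 16.5 (median) and 22.4 (highest) in WT mTEChi (log2 change -3.39 ± 0.35, adjusted p = 5.27e-09). In mTEClo, Ccdc39 was at 1.62, 2.5, 5.96 and 7.04 CPM in KO, against 9.15 (lowest), 12 (median) and 15.7 (highest) in WT mTEClo (log2 change -1.22 ± 0.28, adjusted p = 0.00224). Its 2 KO mTEClo libraries of 6 weeks, which are also the deeper ones, stood above the 2 of 5 weeks. Without the 6 shallowest libraries the mTEClo change was -0.75 (adjusted p = 0.0758), while the age term gave -1.25 (adjusted p = 0.0577). Ccdc40 changed less, at 14.5, 9.0, 12.7 and 8.77 CPM in KO mTEChi, against 12.9 (lowest), 16.8 (median) and 33.5 (highest) in WT mTEChi, with overlap (log2 change -0.71 ± 0.27, adjusted p = 0.025). That call was lost without replicate 3 or 7 of WT mTEChi or replicate 2 or 4 of KO mTEChi, with changes of -0.63 to -0.61 and adjusted p-values of 0.0592 to 0.0814. In KO mTEClo Ccdc40 was at 4.33, 6.89, 4.47 and 8.98 CPM, against 10.1 (lowest), 16.7 (median) and 26.5 (highest) in WT mTEClo (log2 change -1.20 ± 0.29, adjusted p = 0.00407). With age as a further term Ccdc40 passed in neither gate, at -0.64 in mTEChi (adjusted p = 0.0986) and -1.06 in mTEClo (adjusted p = 0.114).

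**Figure D4:**
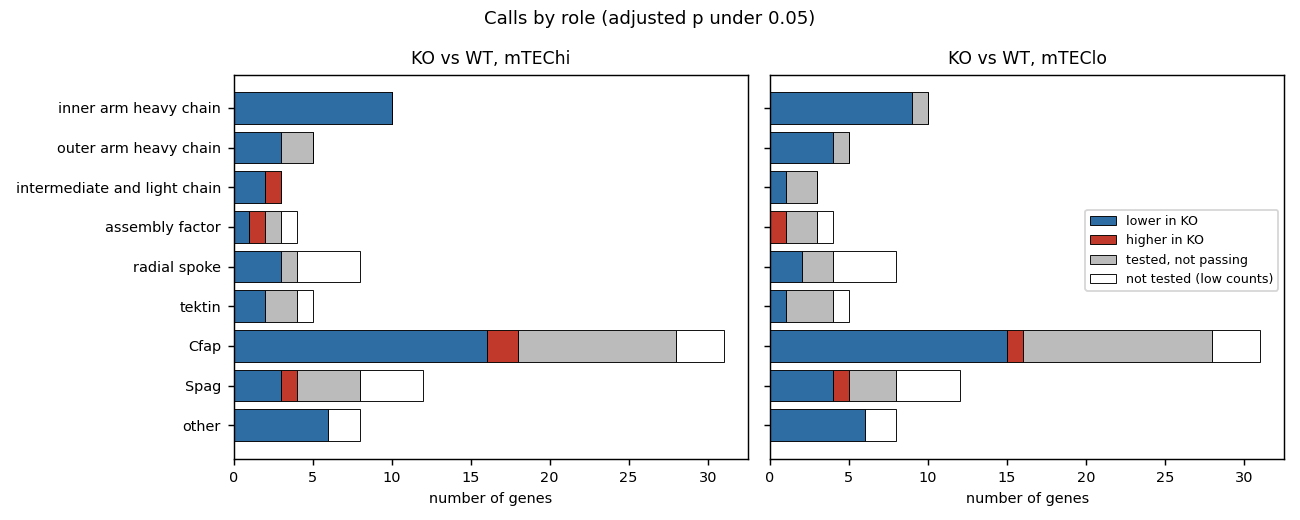
Number of members in each role that were lower, higher or did not pass in KO against WT libraries (adjusted p under 0.05), and the number too low to be tested, for mTEChi (left) and mTEClo (right). All 10 inner arm genes are lower in mTEChi and 9 in mTEClo, while the 3 tested assembly factors show 1 lower and 1 higher call in mTEChi and 1 higher call in mTEClo. Of all genes tested, 28.0% were lower and 25.7% higher in mTEChi, and 9.69% and 12.0% in mTEClo.

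The size of the KO effect itself differed between the gates for 26 members, 14 with a more negative effect in mTEChi and 12 with a more negative or less positive one in mTEClo. Over all genes tested, 14.0% were called lower and 10.8% higher in this comparison, and the members' median difference was -0.05. The spoke head genes Rsph1 and Rsph4a, the intermediate chains Dnaic1 and Dnaic2, and the outer arm chains Dnah5 and Dnah9 each had 1 gene on either side.

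Between the gates of 1 genotype, the members did not move as a set. In WT, 30 were higher and 13 lower in mTEChi than in mTEClo, where 36.7% of all genes were called higher and 33.4% lower. In KO, 27 were higher and 15 lower, where 29.2% of all genes were called higher and 28.0% lower. The members furthest above in mTEChi of WT libraries were Cfap58 (3.39 ± 0.36, adjusted p = 1.32e-09), Dnah14 (3.30 ± 0.20, adjusted p = 4.38e-15) and Dnaic2 (3.10 ± 0.16, adjusted p = 4.55e-16), and those below included Tmem212 (-2.26 ± 0.40, adjusted p = 1.44e-05) and Dnah11 (-1.61 ± 0.11, adjusted p = 2.66e-13). In KO libraries Dnaic2 (4.34 ± 0.24, adjusted p = 5.23e-15) and Cfap58 (4.29 ± 0.43, adjusted p = 6.98e-10) were again far higher in mTEChi, and Cfap44 (-3.99 ± 0.54, adjusted p = 3.56e-07) and Dnah5 (-2.12 ± 0.25, adjusted p = 6.12e-08) were lower there.

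WT libraries of 1 gate differed among themselves as well. In WT mTEClo, replicate 5 (female, 4 weeks) held the highest level of 30 of the 71 tested members and replicate 6 (male, 5 weeks) the lowest of 22, and the sum over all members was 2068 CPM in the one and 1401 in the other. In WT mTEChi, replicate 4 (female) held the highest level of 18 members and replicate 6 (male) the lowest of 23. Those libraries had totals of 3851539, 3255607, 3201804 and 3007969 counts, in that order.

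Genes known to drive multiciliogenesis were measured beside the members. Of 17 such regulators, all tested, 10 fell and 2 rose in KO mTEChi, and 3 fell and 2 rose in KO mTEClo. Over all genes tested, 28.0% were called lower and 25.7% higher in mTEChi, and 9.69% and 12.0% in mTEClo. This list too was chosen with earlier results of these data known. Foxj1, the forkhead activator of motile cilium genes, was at 60.5, 44.2, 44.8 and 48 CPM in KO mTEChi, against 12.4 (lowest), 37.8 (median) and 78.2 (highest) in WT mTEChi (log2 change 0.14 ± 0.27, adjusted p = 0.675), so the KO libraries lay within the WT range. Foxj1 was at 9.2, 8.14, 9.83 and 6.8 CPM in KO mTEClo, against 27.8 (lowest), 34 (median) and 38.2 (highest) in WT mTEClo, with no overlap (log2 change -1.84 ± 0.35, adjusted p = 0.000548). The KO effects differed by 1.98 ± 0.42 (adjusted p = 0.00132).

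Mcidas, which with Gmnc starts the multiciliated programme, was at 0, 0.409, 0 and 0 CPM in KO mTEChi, against 27.4 (lowest), 40.8 (median) and 53.6 (highest) in WT mTEChi, or with 1 and 754 counts 406-fold lower with an exact 95% counting interval of 72.7 to 16072. Gmnc was at 3.51, 1.64, 2.4 and 3.76 CPM in KO mTEChi, against 14.9 (lowest), 25 (median) and 28.7 (highest) in WT mTEChi (log2 change -3.10 ± 0.32, adjusted p = 4.37e-09). Both were low in WT mTEClo, at 0 to 8.67 CPM for Mcidas and 0 to 1.72 for Gmnc, and did not pass there. Deup1 and Ccno, which act in centriole amplification, fell in KO mTEChi (log2 change -5.38 ± 0.54, adjusted p = 4.98e-09 for Deup1; log2 change -5.02 ± 0.49, adjusted p = 1.54e-09 for Ccno), and Cdc20b was listed at 0 in all 8 KO libraries, against 13 to 26.1 CPM in WT mTEChi, at least 65.8-fold lower.

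Trp73, an activator of Foxj1 and of multiciliogenesis, was at 0.439, 0.409, 1.71 and 0 CPM in KO mTEChi, against 12.4 (lowest), 22.5 (median) and 40.7 (highest) in WT mTEChi (log2 change -5.08 ± 0.40, adjusted p = 3.90e-11). In mTEClo it was at 21.7, 21.3, 25.6 and 21.1 CPM in KO, against 12.8 (lowest), 15.7 (median) and 18.9 (highest) in WT (log2 change 0.46 ± 0.23, adjusted p = 0.143), and the KO effects differed by -5.55 ± 0.47 (adjusted p = 1.33e-09). Rfx3, an X-box factor, was at 41.7, 37.2, 42.1 and 37.2 CPM in KO mTEChi, against 56.8 (lowest), 65.1 (median) and 79.3 (highest) in WT mTEChi (log2 change -0.73 ± 0.12, adjusted p = 5.97e-06), and fell by 0.31 in mTEClo (adjusted p = 0.0349). Rfx1 and Rfx2 passed in neither gate. None of the regulator calls was checked with age as a further term or without the 6 shallowest libraries.

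**Figure D5:**
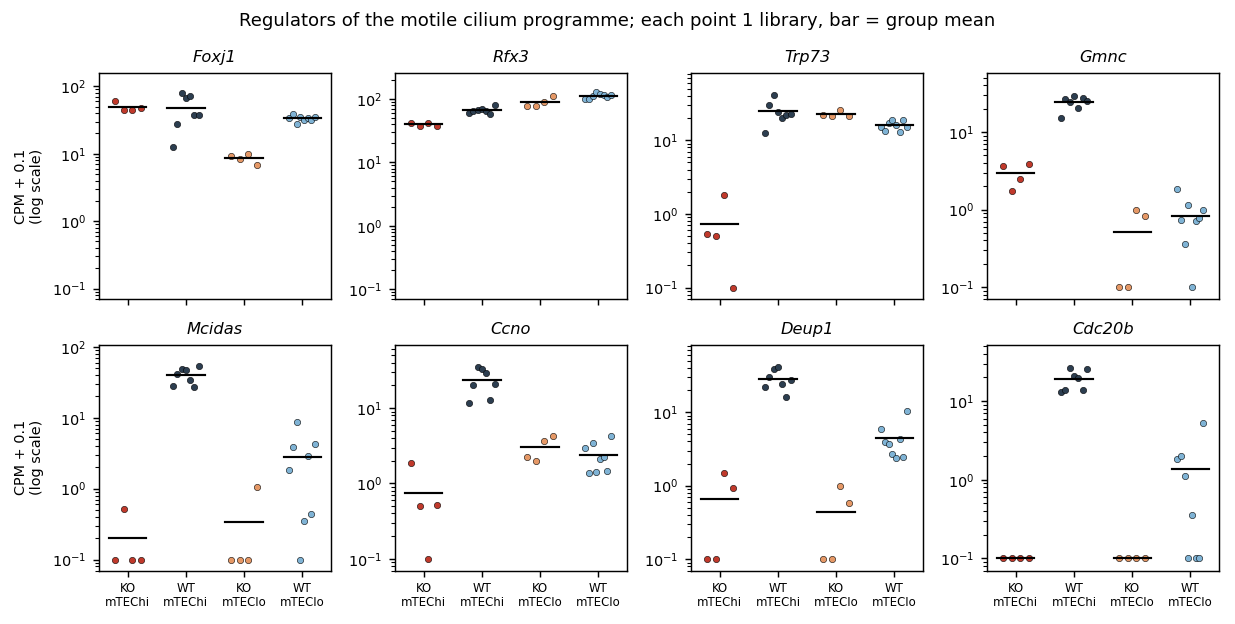
Level in CPM (plus 0.1, log scale) of 8 regulators of multiciliated cells in each library, by group, each point 1 library and each bar the group mean. Foxj1 is low in KO mTEClo and within the WT range in KO mTEChi, while Trp73, Gmnc, Mcidas, Ccno, Deup1 and Cdc20b are low in KO mTEChi.

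No relation was found between Foxj1 and the summed level of the members from library to library. Within WT mTEChi Pearson's r was 0.31 (exact permutation p = 0.474, n = 7) and Spearman's rho 0.21 (exact permutation p = 0.662). Within WT mTEClo r was 0.27 (exact permutation p = 0.528, n = 8) and rho 0.29 (exact permutation p = 0.501). Adjusted over these 4 relations, each p was 0.662. Without the 2 libraries furthest from the median of Foxj1, r was 0.59 in WT mTEChi (5 libraries) and -0.16 in WT mTEClo (6 libraries). All tests were two-sided, and with so few libraries a relation of moderate size could be missed.

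Other axoneme genes that the symbol rule does not reach were tested the same way. Of 59 such genes, 46 were tested, and 28 fell and 3 rose in KO mTEChi, while 29 fell in KO mTEClo. Their median log2 change was -1.17 in mTEChi and -1.18 in mTEClo. Of all genes tested, 28.0% were called lower and 25.7% higher in mTEChi, and 9.69% and 12.0% in mTEClo. These axoneme genes were chosen with earlier results of these data known, so they are no independent check. Lrrc23, of the radial spoke, was at 6.58, 9.41, 12.3 and 11.3 CPM in KO mTEChi, against 28.4 (lowest), 40.9 (median) and 53.8 (highest) in WT mTEChi (log2 change -2.03 ± 0.22, adjusted p = 1.08e-08). The mTEClo values of Lrrc23 were 0.541, 0.626, 1.79 and 0.971 CPM in KO, against 11.2 (lowest), 13.2 (median) and 21.9 (highest) in WT mTEClo (log2 change -3.64 ± 0.35, adjusted p = 1.81e-08). Hydin, of the central apparatus, was at 1.62, 3.13, 7.74 and 5.83 CPM in KO mTEClo, against 21.9 (lowest), 29.5 (median) and 38.9 (highest) in WT mTEClo (log2 change -2.50 ± 0.26, adjusted p = 8.14e-08). Sntn, an apical protein of motile cilia, was listed at 0 in all 8 KO libraries and was at 1.2 (lowest), 3.88 (median) and 6.36 (highest) CPM in WT mTEClo, at least 13.3-fold lower in KO.

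Cilium genes that are not special to motile cilia gave smaller changes, with a median of -0.17 in mTEChi and -0.10 in mTEClo. Of 43 tested genes of intraflagellar transport, the BBSome and the transition zone, which primary cilia use too, 13 fell and 8 rose in KO mTEChi, and 3 fell and 1 rose in KO mTEClo. Ift172 rose in mTEChi (log2 change 0.69 ± 0.08, adjusted p = 3.04e-08) and Nphp4 fell (log2 change -3.05 ± 0.40, adjusted p = 2.96e-07), and Dync2h1, the heavy chain of the transport dynein, fell in mTEClo (log2 change -0.62 ± 0.11, adjusted p = 0.000125). Of 21 tested genes of cytoplasmic dynein and dynactin, 2 fell and 5 rose in KO mTEChi, and 1, Dynll2, rose in KO mTEClo (log2 change 0.42 ± 0.12, adjusted p = 0.0102). Their median log2 change was 0.11 in mTEChi and 0.03 in mTEClo. Of 26 sperm and testis genes outside the axoneme, 9 were tested, and 2 fell and 4 rose in KO mTEChi, while 1 rose in KO mTEClo. For all of these lists, the shares over all genes tested were 28.0% lower and 25.7% higher in mTEChi. In mTEClo they were 9.69% and 12.0%.

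Markers of other cells that such a sort could hold were tested too, and their counts stand against the 28.0% of all genes called lower and 25.7% called higher in mTEChi, and 9.69% and 12.0% in mTEClo. In KO mTEChi, 6 of 8 tested thymocyte markers fell, with summed levels of 46.9 to 62.2 CPM in KO, against 93.5 to 128 in WT. There 5 of 9 fibroblast markers fell and 1 rose, with sums of 261 to 285 CPM in KO, against 331 to 497 in WT, and 7 of 12 dendritic cell and macrophage markers fell and 3 rose, with sums of 607 to 667 CPM in KO, against 483 to 544 in WT. In KO mTEClo, 8 of 10 cTEC markers rose, with sums of 840.1 to 952 CPM in KO, against 549.8 to 681 in WT, and 1 of 8 thymocyte markers fell. Of the 9 fibroblast markers 1 fell and 2 rose there, with a median log2 change of 0.63, while their sum was 357 to 423 CPM in KO, against 536 to 685 in WT. Of the cTEC markers 4 fell and 4 rose in KO mTEChi, and of the dendritic cell and macrophage markers 1 fell and 2 rose in KO mTEClo. Of 7 tested B cell markers, 4 rose in each gate and 1 fell in mTEChi, and of 6 endothelial markers, 3 fell and 1 rose in mTEChi and 2 rose in mTEClo. Of the 13 mTEC markers, which include Aire, 3 fell and 3 rose in mTEChi and 1 fell in mTEClo. Of the markers of these lists that were tested, Clec9a was at 0 in all KO mTEClo libraries. Their part in the members' differences was not tested.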

How the data were processed

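RNA of 23 sorted mTEC libraries was made into libraries by a modified RamDA-seq method, which covers whole transcripts of total RNA, per the labels' protocols. The gene count table, with raw counts per Ensembl gene, was deposited by the authors. The submitters' processing notes list HTSeq 0.11.2, edgeR, STAR 2.7.3a, fastp 0.20.0, Picard 2.21.1 and SAMtools 1.9 with mm10/GRCm38; roles and settings are not given in the sources used here. The library type was treated as unstranded, so reads of overlapping genes cannot be told apart. The authors' deposited normalized table was not used.

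From the counts, genes passing filterByExpr (minimum count 10 by group) were fitted in edgeR 4.0.16 (R 4.3.3) with TMM factors and a robust quasi-likelihood model on group and sex over all 23 libraries. That left 19310 genes, and p-values were Benjamini-Hochberg adjusted over them, with a threshold of 0.05. CPM are counts per 1000000 counts in tested genes, scaled by TMM. Errors of log2 changes are SE, from the change and its F statistic. The step was tested on simulated data. For a group at 0, a floor of 3 counts over the group was used, and for 1 to 3 counts an exact 95% interval of the ratio, which covers counting error only. Exon overlaps come from GENCODE M21.

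Members and gene lists were chosen with earlier results of these data known. In each role the members named were up to 3 with the smallest p among those passing in each comparison, those passing against most of their role, the most abundant one, and those at 0 throughout a group with at least 2 CPM in the other. Dnah12, Dnah7c, Cfap206, Dnaaf2, Tekt3 and Spag1 were named after their values were seen. Same-numbered KO libraries of the 2 gates deviated together (correlations 0.164, 0.197, 0.139 and 0.222). They are also of the same age, and libraries of unlike number were not compared, so a pairing by number is not shown. In the other group pairs the correlations were -0.179 to 0.098, and a block by replicate number was an alternative. DESeq2 1.42.0, RLE factors, other filters and thresholds, other terms, left-out libraries and subsets were further alternatives, of which leaving out the 6 libraries with the fewest counts and using KO libraries of 1 age were chosen after seeing the data.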

Additional observations from a re-analysis of the deposited data

Results flagged for a closer look

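The KO effect differed between the gates for 26 members, by a test of the difference itself (KO effect in mTEChi minus that in mTEClo, log2 scale, adjusted p under 0.05 in edgeR). Cilium genes with a more negative effect in mTEChi were Tekt1 (-5.85), Cfap54 (-4.42), Cfap69 (-4.16), Cfap44 (-3.41), Rsph1 (-2.55), Dnah7b (-2.24), Ccdc39 (-2.17), Dnah14 (-1.68), Dnah5 (-1.47), Dnaic1 (-1.39), Cfap45 (-1.38), Dnah8 (-1.35), Cfap300 (-1.33) and Dnah2 (-0.79). Genes with a more negative effect in mTEClo were Cfap161 (3.92), Cfap299 (3.10), Dnah12 (2.89), Spag16 (2.63), Spag6l (2.30), Dnah6 (2.05), Rsph4a (1.73), Cfap61 (1.44), Cfap157 (1.21), Dnah9 (1.13) and Dnah1 (0.79), and Dnaic2 (1.24) is on the same side. The values of Tekt1, Cfap54 and Cfap69 rest on KO mTEChi groups with 0 to 2 counts and those of Cfap161 and Cfap299 on KO mTEClo groups with 1 count, so these 5 are no measured sizes.

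Some of these were lost without 1 library. Dnah12 was not part of this check or of the further ones given here. Without replicate 4 of KO mTEClo, the adjusted p was 0.101 for Cfap157, 0.0664 for Cfap299, 0.122 for Cfap61, 0.144 for Dnah1 and 0.0802 for Dnaic1. Without replicate 3 of KO mTEClo it was 0.0525 for Cfap299 and 0.0629 for Dnah2, and without replicate 3 of KO mTEChi it was 0.0927 for Rsph4a. Cfap61 was also lost without replicate 1 of KO mTEClo (0.0643) and without replicate 1 or 2 of KO mTEChi (0.0642 and 0.0514). Dnah1 was lost when any of 15 single libraries was left out. With the replicate number as a block, the adjusted p was 0.0622 for Cfap61 and 0.0562 for Dnah1. With age as a further term it was 0.0597 for Cfap61 and 0.0574 for Dnah1. Without the 6 shallowest libraries it was 0.176 for Cfap61 and 0.1935 for Dnah1.

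The rule for a library far from the rest of its group flags about 1 in 20 groups by chance for normally distributed values. A single count in a group otherwise at 0 is always flagged, so that rate does not hold here. A library far from the rest was found for 17 of 229 groups of 4 to 8 libraries examined. Some were single counts in a group otherwise at 0, namely Ccdc180, Cfap161 and Spag17 in replicate 1 of KO mTEClo (0.541 CPM each), Cfap299 and Tmem212 in replicate 2 of KO mTEClo (0.626 CPM each), Cfap69 in replicate 2 of KO mTEChi (0.409 CPM) and Sec14l3 in replicate 4 of KO mTEChi (0.418 CPM). In KO libraries, the gap was also seen for Cfap69 (3.64 CPM) and Dnah9 (44.9 CPM) in replicate 4 of KO mTEClo, Dnah8 in replicate 2 of KO mTEClo (55.1 CPM) and Dnah14 in replicate 4 of KO mTEChi (5.43 CPM). In WT libraries it was seen for Dnah7a (6.62 CPM), Rsph9 (14.0 CPM) and Tekt4 (5.85 CPM) in replicate 5 of WT mTEClo, Cfap57 in replicate 4 of WT mTEClo (9.70 CPM), Dnaaf5 in replicate 2 of WT mTEChi (18.6 CPM) and Dnah14 in replicate 3 of WT mTEChi (50.3 CPM).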

How the results depend on the processing

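The count of members lower in KO mTEChi was 37 to 49 over all alternatives, and 44 to 47 when 1 library was left out, and that of members higher was 1 to 6, and 5 to 6. In KO mTEClo the lower count was 29 to 45, and 41 to 44 when 1 library was left out, and the higher count 0 to 4, and 2 to 3. Between gates, leaving out 1 library gave 9 to 13 lower and 23 to 32 higher in WT, 14 to 16 lower and 21 to 27 higher in KO, and 13 to 15 lower and 10 to 14 higher for the difference of the KO effects.

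Counts that moved by more than 1.5 times were these. At an adjusted p under 0.01, 1 member was higher in KO mTEClo and 8 were lower in mTEChi of WT. With a change over 2-fold also required, 1 was higher in KO mTEChi, 0 were higher in KO mTEClo, and 2 were lower and 16 higher in mTEChi of WT. With the replicate block, 1 was higher in KO mTEClo, and no other count moved that far, at 47 and 6 (lower and higher) in mTEChi, 43 lower in mTEClo, 13 and 26 between gates in WT, 14 and 28 in KO, and 14 and 12 for the difference. In male libraries alone, 8 were lower in mTEChi of WT. In a fit of the 2 KO groups alone, which tested 38 members, 9 were lower and 17 higher in mTEChi. With KO libraries of 5 weeks only, 9 were lower and 16 higher in mTEChi of KO, and 5 and 5 passed for the difference. There Cfap43 in KO was higher in mTEChi by 1.77 on the log2 scale, where all KO libraries gave -1.68, and it was the one direction that reversed. Its high KO mTEClo libraries are those of 6 weeks, which are also the deeper ones.

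Of 186 called values of named members, 185 kept their direction under every alternative and 101 also kept their side of the threshold, and 31 crossed it when 1 library was left out. RLE factors and DESeq2 each lost 5. The 186 values do not include those of Dnah12, Dnah7c and Cfap206 or of any gene outside the members. Depth was 1602125 to 3938588 counts a library, so members under about 1 CPM rest on a few counts. A fit of males of 5 weeks alone could be made for mTEChi only.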
